A study of Mus musculus with 16 samples.

Results

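The 44 mouse collagen chain genes were followed across 16 RNA sequencing libraries of periodontal ligament, the tissue that holds a tooth root in its socket. They were chosen by name alone, as every gene whose symbol reads Col, digits, a, digits, out of 55359 genes in the deposited count table. All libraries came from wild-type male C57BL/6J mice 9 weeks of age, and each of the 4 groups had 4 libraries. Control mice had no treatment. Ligature mice had a silk thread around the second molar of the left upper jaw, which gathers bacteria and is a common model of periodontitis. Trauma mice had composite resin bonded on the biting surface of the same tooth, which loads it at every bite. The remaining group, ligature plus trauma, had both. Periodontal ligament is the tissue by the sample labels, whereas the series title speaks of bone tissue. The labels do not give the time after treatment or whether 1 library is 1 mouse, so the p-values measure the spread between libraries, which may be partly technical.

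A collagen is built from 3 chains wound into a triple helix, and each chain has its own gene. Fibrillar collagens pack into the rope-like fibrils that run from tooth root to bone and carry the load of chewing. FACIT collagens (fibril-associated collagens with interrupted triple helices) sit on the surface of those fibrils, network collagens form beaded filaments or sheets, and basement membrane collagens form the thin mats under epithelium and around blood vessels. The chains of types II, IX, X and XI are grouped here as cartilage types, although type XI chains are also found outside cartilage.

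Levels are in CPM, a gene's counts divided by its library's total after scaling, and levels of different genes are compared only per kilobase of transcript. In control ligament Col3a1 led with a mean of 4282 CPM per kb, followed by Col1a2 with 3472 and Col1a1 with 1997. The next was the type V chain Col5a2 with 231 CPM per kb. Over the 16 libraries, 12 genes had a mean under 1 CPM, 20 lay from 1 CPM to below 100 CPM, and 12 had 100 CPM or more. All 44 had at least 1 count. The 44 genes took 4.84, 6.34, 6.98 and 7.08% of all counts in the 4 control libraries, and 3.14, 1.95, 5.03 and 4.27% in the ligature libraries. They took 4.93, 4.65, 3.63 and 5.56% with trauma and 3.68, 2.39, 2.58 and 3.74% with ligature plus trauma, so every ligature plus trauma library was below every control library. Col1a1, Col1a2 and Col3a1 together made up 90.1 to 91.1% of the collagen counts in control and 78.4 to 82.9% with the ligature.

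**Figure D1:**
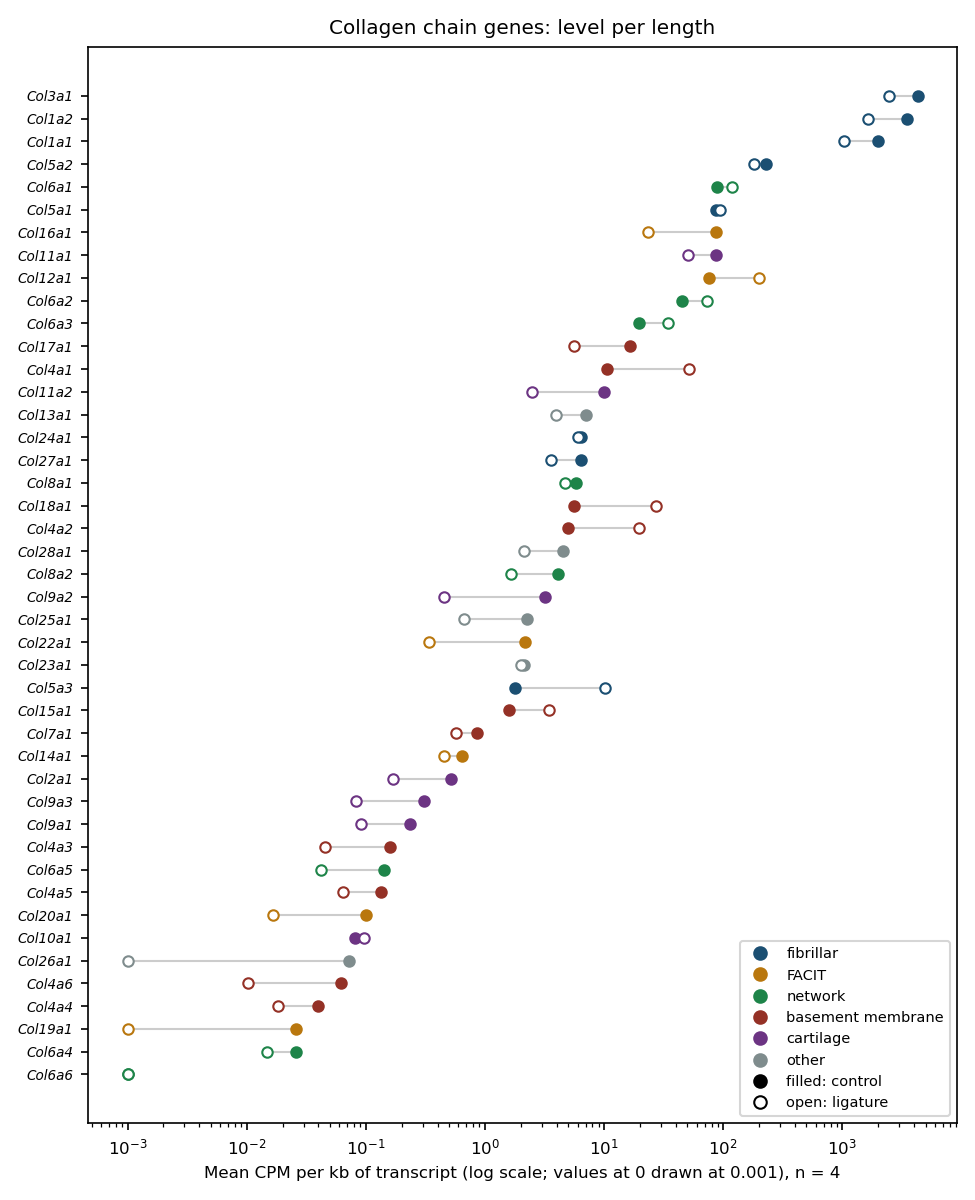
Mean level of each collagen chain gene per kilobase of transcript (log axis) in control (filled) and ligature (open) libraries, n = 4 each, coloured by class, with values at 0 drawn at 0.001. Col3a1, Col1a2 and Col1a1 stand at the top in both groups, at 4282, 3472 and 1997 CPM per kb in control and 2471, 1650 and 1034 with the ligature.

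Libraries held 58458102 to 77468584 counts. In 3 of them, which were ligature 2 and libraries 2 and 3 of ligature plus trauma, counts were shifted to short transcripts: the rank correlation across genes between transcript length and a library's deviation was -0.428, -0.342 and -0.361, against -0.171 to 0.319 in the others. These 3 also had the lowest collagen shares of all counts, at 1.95, 2.39 and 2.58%. Collagen transcripts are long, so each result was also fitted in the 13 libraries without these 3. The tissue label was checked against 7 ligament fibroblast markers (Postn, Scx, Tnmd, Aspn, Mkx, Thbs4 and Fmod), all of them present, with a summed level of 11675 to 46213 CPM in control and 12110 to 29568 CPM with the ligature. Control 1 had the lowest sum of its group. Markers of oral epithelium were also present, at 1232 to 10772 CPM in control, and so was the odontoblast gene Dspp, at 248 to 2940 CPM in control. Osteoblast markers summed to 6006 to 11771 CPM in control, so the presence of ligament markers does not settle whether bone was included.

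With the ligature alone, the basement membrane chains Col4a1, Col4a2, Col18a1 and Col15a1, the fibril-surface chain Col12a1 and the minor type V chain Col5a3 rose 2.17-fold to 5.79-fold over control. The main fibril chains Col1a1 and Col1a2 fell 1.93-fold and 2.1-fold, and Col16a1, Col22a1, Col8a2, Col17a1, Col9a2, Col25a1 and Col27a1 fell as well. Of the 44 genes, 40 had enough counts to be tested. By edgeR's quasi-likelihood test with Benjamini-Hochberg adjustment over 20953 genes, 6 of the 40 were higher (15%) and 9 lower (22.5%) at an adjusted p under 0.05, against 5.88% higher and 4.78% lower among all genes tested. The median log2 fold change was -0.81 over the 40 and -0.05 over all genes, and -0.554 and -0.019 with the trend with transcript length removed. With no filter on low counts, 44 were tested, of which 6 were higher and 6 lower. The ranges of the 4 ligature and 4 control libraries were apart for 8 higher and 8 lower collagen genes, against 9.97% and 9.15% of all genes. In bulk tissue, fewer cells of a type and less RNA per cell cannot be told apart.

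**Figure D2:**
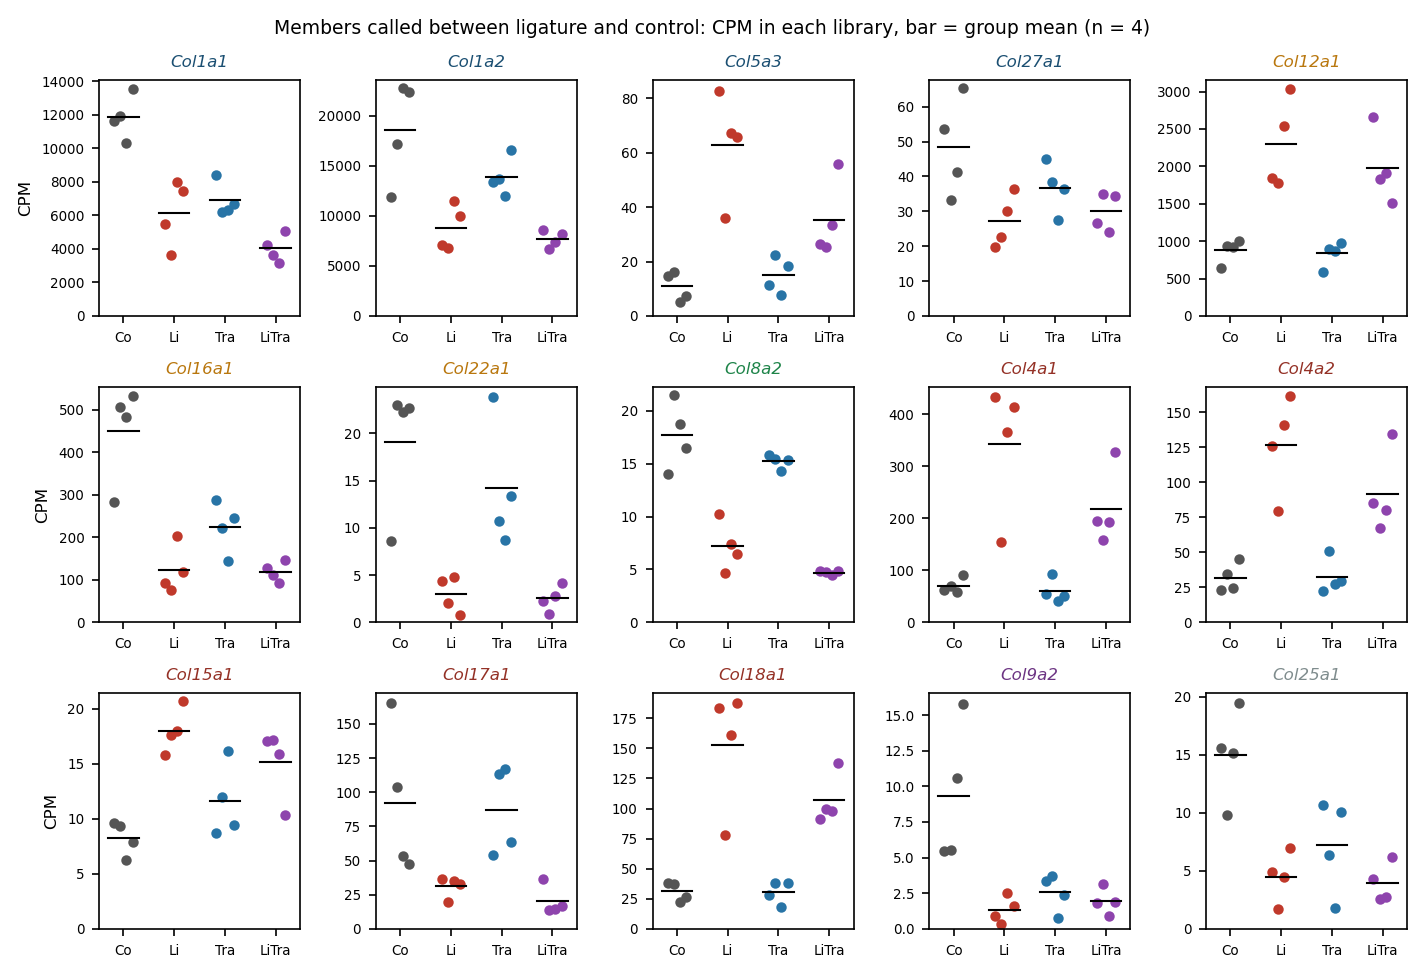
CPM in each library (points) and the group mean (bar, n = 4) of the 15 collagen genes that passed the test between ligature and control, with the groups written Co (control), Li (ligature), Tra (trauma) and LiTra (both). The higher genes, such as Col12a1 at 1780 to 3032 CPM with the ligature against 645 to 997 in control, are above every control library in both groups that carry a ligature. Col12a1 is at 592 to 981 CPM with trauma alone. Col15a1 overlaps between trauma alone, at 8.76 to 16.2 CPM, and ligature plus trauma, at 10.3 to 17.2 CPM.

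Among the 8 fibrillar chains, 1 rose and 3 fell with the ligature. Col1a1, the chain present in 2 copies in each type I molecule, stood at 11630, 11921, 10286 and 13543 CPM in control and 5452, 3635, 7984 and 7460 CPM with the ligature. Every ligature library was below every control library, a log2 difference of -0.95 ± 0.25 (SE; adjusted p = 0.0256 by edgeR). This call was lost without control 2 (0.0562), control 4 (0.07) or ligature 1 (0.0743), with no filter on low counts (0.0563) and when only the 2 groups were fitted (0.0764). Its partner chain Col1a2 stood at 11917, 17211, 22751 and 22400 CPM in control and 7058, 6762, 11460 and 10018 CPM with the ligature. Control 1 was well below the other control libraries but above every ligature library, and the change was -1.07 ± 0.25 (adjusted p = 0.0138, or 0.063 when only the 2 groups were fitted). Col3a1, the single chain of type III collagen, ranged from 13096 to 30332 CPM in control and from 8587 to 20426 CPM with the ligature. These ranges overlap, and its log2 fold change of -0.79 ± 0.32 did not pass (adjusted p = 0.117), although DESeq2 called it lower. Beside these chains, 3 of the 7 ligament fibroblast markers and 3 of the 8 osteoblast markers fell and none rose, although the osteoblast sum overlapped between the groups at 6006 to 11771 and 8964 to 10316 CPM. Of the 5 leukocyte markers 2 rose and none fell, and their sum was 1357 to 2158 CPM in control and 2340 to 3716 CPM with the ligature. The part of these cell types in the fibrillar results was not tested.

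Type V collagen nucleates fibrils and limits their width, and its 3 chains stood differently. Col5a3 stood at 14.7, 16.2, 5.15 and 7.39 CPM in control and 82.8, 35.9, 67.1 and 65.8 CPM with the ligature. All 4 ligature libraries were above all 4 control libraries, a 5.79-fold rise (log2 2.53 ± 0.43, edgeR adjusted p = 0.00191). Its level stayed low, at 10.3 CPM per kb with the ligature against 93.3 for Col5a1. Col5a1 had 582, 748, 792 and 825 CPM in control and 600.0, 832, 909.6 and 795 CPM with the ligature, and Col5a2 had 700.1 to 2023 and 856 to 1575 CPM. Both overlapped between the groups and neither passed the test. Col27a1, a minor fibrillar chain, had a mean of 48.3 ± 14.1 CPM (SD, n = 4) in control and 27.2 ± 7.42 with the ligature, with overlapping ranges. Its fall of -0.83 ± 0.25 (adjusted p = 0.045) was lost under 14 of the 25 alternatives: it was -0.44 with adjusted p = 0.237 once each library's trend with transcript length was removed, and it was lost at 0.0985 in the 13 libraries, at 0.0985 when only the 2 groups were fitted and at 0.0727 with no filter. Leaving out any of 10 single libraries also ended it, with adjusted p from 0.0504 (trauma 1) to 0.142 (control 4). Those 10 were control 1, 3 and 4, ligature 1, 2 and 3, trauma 1, 2 and 4 and ligature plus trauma 4. Col24a1, the other minor chain, overlapped between groups at 37 to 50.8 and 29.9 to 64.1 CPM and did not pass.

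Of the 44 genes, 35 had at least 1 entry in the RefSeq promoter table (GRCm38.p6), and 38 start sites were read over the 250 bases before the start. The windows of Col5a3 and Col15a1, which rose with the ligature, and of Col25a1, which fell, are shown as examples of both directions and overlap no annotated exon. Each is given 5′ to 3′ on the gene's strand, with any CCAAT box (CCAAT), GC box (GGGCGG) or TATA box (TATAAA), on either strand, in capitals.
Col5a3, minus strand, chr9:20815068-20815317: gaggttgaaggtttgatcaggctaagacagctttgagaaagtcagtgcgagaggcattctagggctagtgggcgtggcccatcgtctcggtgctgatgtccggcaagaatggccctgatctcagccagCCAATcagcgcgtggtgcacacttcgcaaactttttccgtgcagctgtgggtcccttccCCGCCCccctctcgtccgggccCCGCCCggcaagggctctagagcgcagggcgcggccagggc
Col15a1, plus strand, chr4:47207762-47208011: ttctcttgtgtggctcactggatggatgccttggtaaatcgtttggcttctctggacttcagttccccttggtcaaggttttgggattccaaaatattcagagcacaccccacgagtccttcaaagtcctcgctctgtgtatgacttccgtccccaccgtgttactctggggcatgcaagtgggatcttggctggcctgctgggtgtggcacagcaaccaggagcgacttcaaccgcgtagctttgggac
Col25a1, plus strand, chr3:130180595-130180844: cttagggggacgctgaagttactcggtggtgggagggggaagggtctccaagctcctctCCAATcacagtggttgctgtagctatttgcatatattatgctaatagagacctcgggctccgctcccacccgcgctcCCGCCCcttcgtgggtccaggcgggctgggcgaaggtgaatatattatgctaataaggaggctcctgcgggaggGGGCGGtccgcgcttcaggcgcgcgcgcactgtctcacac
Col5a3 and Col25a1 each hold 1 CCAAT box and 2 GC boxes in these windows, and Col15a1 holds none of the 3 motifs. The GC box was in 57.9% of the 38 collagen windows and 32.7% of all 32851 windows, the CCAAT box in 34.2% and 33.8%, and the TATA box in 13.2% and 12.4%. The AP-1 motif TGANTCA was in 2.63% and 6.75%. A match describes letters only and is not a measured binding site.

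Among the 6 FACIT chains, Col12a1 rose while Col16a1 and Col22a1 fell. Col12a1 encodes the type XII chain, which bridges neighbouring fibrils and is known from ligament and tendon under load. It stood at 645, 937, 926 and 997 CPM in control and 1839, 1780, 2537 and 3032 CPM with the ligature. The lowest ligature library was well above the highest control library, a 2.62-fold rise (log2 1.39 ± 0.25, edgeR adjusted p = 0.00293) that passed under all 25 alternatives. Col16a1, a chain linked to integrin binding and to fibrillin-rich filaments, went the other way. It had 283, 506, 483 and 532 CPM in control and 93.2, 75.8, 203 and 119 CPM with the ligature, with no overlap (-1.88 ± 0.31, adjusted p = 0.00179). Col22a1, a chain found at tissue junctions such as that of muscle and tendon, had 8.57, 23, 22.3 and 22.7 CPM in control and 4.35, 2.09, 4.81 and 0.732 CPM with the ligature. Control 1 stood apart from its group yet above every ligature library (-2.67 ± 0.58, adjusted p = 0.00814). The 6 skeletal muscle markers, of which none passed, had a sum of 3.28 to 122 CPM in control and 5.91, 32.2, 159 and 726 CPM in ligature libraries 4, 1, 3 and 2, and their part was not tested. Col14a1, the close relative of Col12a1 on resting fibrils, was low at 3.54 to 5.17 CPM in control and 0.839 to 6.08 CPM with the ligature and did not pass. Col20a1 had means under 1 CPM in all groups, and Col19a1, with at most 0.232 CPM in any library, was not tested.

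In the network class, 1 of 7 tested chains passed, and it fell. Col8a2, a chain of the hexagonal type VIII lattice known from the cornea and vessel walls, had 14, 21.4, 18.7 and 16.5 CPM in control and 10.2, 4.65, 7.41 and 6.46 CPM with the ligature. The groups did not overlap (-1.30 ± 0.23, edgeR adjusted p = 0.00267), and the call held under all 25 alternatives. Its partner chain Col8a1 overlapped between the groups at 15.7 to 42.9 and 12.7 to 36.9 CPM. The 3 common chains of type VI collagen, the beaded filament around cells, did not pass. Col6a3 had 140.4, 192, 222 and 236 CPM in control and 369.9, 308, 435 and 265 CPM with the ligature. All ligature libraries were above all control libraries, but its 0.80 ± 0.27 gave an adjusted p of 0.0682. Col6a2 likewise had ranges apart, at 187 to 236 and 262 to 432 CPM (0.69 ± 0.24, adjusted p = 0.0773), and Col6a1 overlapped at 300.2 to 435 and 327 to 629 CPM. DESeq2 called Col6a2 and Col6a3 higher, as did limma-voom and the fit with the length trend removed. Col6a4 and Col6a5 were at or below 5.69 CPM in every library, and Col6a6, at or below 0.128 CPM, was not tested.

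In the basement membrane class, 4 of 9 tested chains rose and 1 fell. Col4a1 and Col4a2 form the common type IV network, and their RefSeq starts lie on opposite strands 21 bases apart on chromosome 8 (GRCm38.p6). Col4a1 had 63, 69.8, 57.7 and 90.2 CPM in control and 434, 154, 367 and 415 CPM with the ligature. Ligature 2 was the lowest of its group and still above every control library, and the rise was 4.88-fold (log2 2.29 ± 0.34, edgeR adjusted p = 0.000965). Col4a2 had 23.1, 34.5, 24.5 and 45.4 CPM in control and 126, 79.5, 141 and 162 CPM with the ligature, again with no overlap (2.00 ± 0.32, adjusted p = 0.00144). Col18a1, whose end fragment is endostatin, had 38.5, 37.6, 22.7 and 26.9 CPM in control and 183, 77.7, 161 and 188 CPM with the ligature. Each ligature library was above each control library (2.28 ± 0.31, adjusted p = 0.000465). Its relative Col15a1 rose from 8.29 ± 1.56 CPM (SD, n = 4) to 18 ± 2.03, with ranges apart (1.12 ± 0.24, adjusted p = 0.00876). These 4 rises passed under all 25 alternatives. The 4 other type IV chains, Col4a3, Col4a4, Col4a5 and Col4a6, were at most 3.4 CPM in any library. Col4a6 was not tested and none of the others passed.

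Col17a1 is the transmembrane collagen that anchors epithelial cells to the mat below them, and it was the basement membrane chain that fell. It had 165, 104, 53.7 and 47.3 CPM in control and 36.4, 20, 35.1 and 33.1 CPM with the ligature. Controls 1 and 2 were far above controls 3 and 4, and all were above the ligature libraries (-1.57 ± 0.42, edgeR adjusted p = 0.0272). The call was lost without control 1 (0.103), control 2 (0.0613), ligature 1 (0.0532), ligature 2 (0.0758) or ligature 4 (0.0519), and in the 13 libraries (0.0703). Of the 8 epithelial markers 5 fell and none rose. Their sum was 10311, 10772, 2871 and 1232 CPM in controls 1 to 4, against 1310 to 2059 CPM with the ligature. In that sum control 4 lay below every ligature library, although its Col17a1 was above them all. Col7a1, the anchoring fibril chain of the same junction, overlapped between the groups at 3.41 to 13 and 4 to 6.11 CPM. Endothelial and mural markers (Pecam1, Cdh5, Kdr, Tie1, Emcn, Rgs5 and Myh11) moved with the chains that rose: 5 of 7 rose, none fell, none was at 0, and their sum was 240 to 473 CPM in control and 595 to 741 CPM with the ligature. The part of either cell type in the collagen results was not tested.

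**Figure D3:**
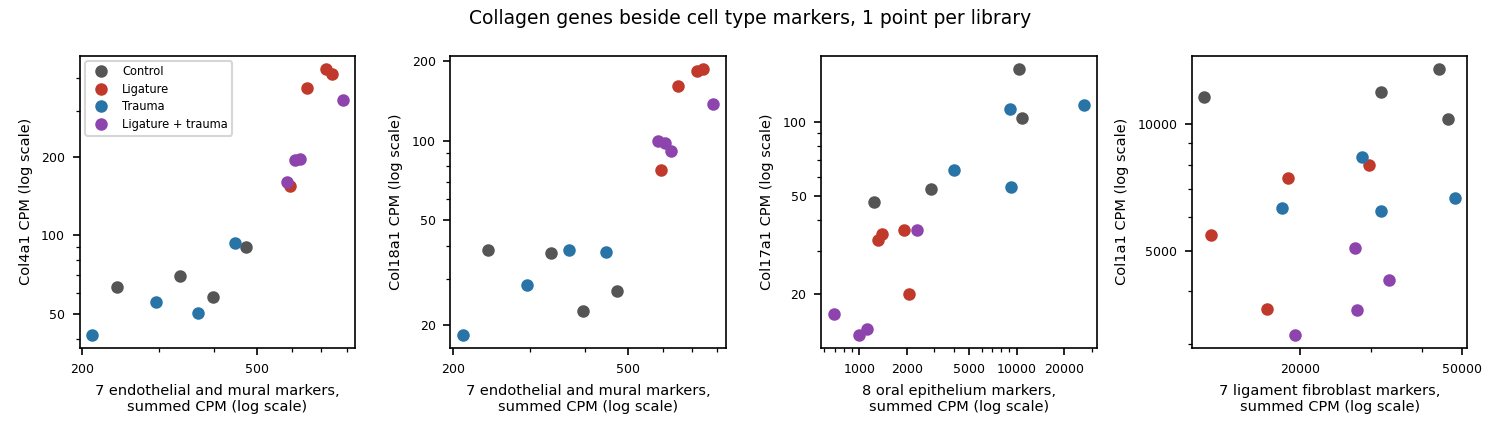
Each point is 1 library, with a collagen gene's CPM against the summed CPM of a marker list (both axes log). In the first panel the 8 libraries with a ligature lie at 584 to 783 CPM of endothelial and mural markers and 154 to 434 CPM of Col4a1, apart from the others at 211 to 473 and 41.4 to 93.1, and in the last panel the 8 ligature-bearing libraries have 3153 to 7984 CPM of Col1a1. The ligament fibroblast sum there is 11675 CPM in control 1 and 31607 to 46213 CPM in the other 3 controls, so the 12110 to 29568 CPM of the ligature libraries and 3 of the 4 ligature plus trauma libraries lie below those 3.

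Of the 7 cartilage-type chains, 1 passed. Col9a2, a chain of the type IX collagen that coats cartilage fibrils, had 5.5, 5.54, 10.6 and 15.8 CPM in control and 0.883, 0.312, 2.54 and 1.62 CPM with the ligature. The groups did not overlap (-2.80 ± 0.63, edgeR adjusted p = 0.0112). The 8 cartilage markers listed (Acan, Sox9, Hapln1, Matn1, Matn3, Cnmd, Snorc and Ucma) were low throughout: their sum was 39.2 to 49.5 CPM in control and 7.05 to 16.7 CPM with the ligature, 2 of the 6 tested fell, none rose, and 2 were at 0 in all ligature libraries. Their part was not tested. Col2a1, the main fibril chain of cartilage, stood at 1.23, 3.76, 2.46 and 3.12 CPM in control and 2.08, 0.547, 0.0137 and 0.842 CPM with the ligature, and Col10a1, of hypertrophic cartilage, was at most 0.86 CPM in any library. Neither passed. By contrast Col11a1, a type XI chain that joins type I and V fibrils in many tissues, was abundant, with 312, 624, 799 and 919 CPM in control and 317, 243, 539 and 458 CPM with the ligature. The ranges overlapped and its -0.77 ± 0.30 did not pass (adjusted p = 0.109), except in the fit without control 1. Col11a2 was spread widely within each group, at 19.2 to 111 CPM in control and 4.02 to 34.9 CPM with the ligature (-2.01 ± 0.74, adjusted p = 0.093). DESeq2 and the fit without ligature 4 called Col11a2 lower.

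The remaining 5 genes are mainly transmembrane collagens. Col25a1, which is needed where motor nerves enter muscle, had 15.6, 9.81, 15.1 and 19.5 CPM in control and 4.9, 1.68, 4.47 and 6.96 CPM with the ligature. The groups did not overlap (-1.74 ± 0.50, edgeR adjusted p = 0.0376), but the call was lost without control 1 (0.0731), control 3 (0.0667), control 4 (0.0916), ligature 1 (0.0772), ligature 2 (0.0829) or ligature 3 (0.0703), with no filter (0.057) and in the 13 libraries (0.0789). Col28a1, a non-transmembrane chain known from peripheral nerve, ranged from 10.2 to 25.6 CPM in control and 4.12 to 14.8 CPM with the ligature and did not pass (-1.09 ± 0.48, adjusted p = 0.15). Of the 4 Schwann cell markers, 3 fell, and their sum was 159 to 236 CPM in control and 65.9 to 77.2 CPM with the ligature. Their part in these values was not tested. Col13a1, of cell adhesion sites, had 12.5 to 30.2 and 8.22 to 14.8 CPM (-0.85 ± 0.27, adjusted p = 0.057). DESeq2, limma-voom, the stricter filter and the fit without control 1 called Col13a1 lower. Col23a1 overlapped at 8.3 to 21 and 9.33 to 12.6 CPM, and Col26a1 was too low to test, at most 0.45 CPM in any library.

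With trauma alone, no collagen gene passed. The background was 0.00477% of genes higher, 1 gene of 20953, and 0% lower, and DESeq2 and limma-voom also called 0 collagen genes. At an unadjusted p under 0.05 there were 4 of 40 collagen genes, 10%, all with lower means, against 6.92% of all genes. The median log2 fold change over the 40 was -0.215, with 14 positive, and became 0.073, with 23 positive, once each library's trend with transcript length was removed. Ranges were apart for 0 higher and 2 lower, against 3.65% and 3.28% of all genes. Col1a1 had 8372, 6217, 6328 and 6688 CPM with trauma, each below the lowest control library at 10286 CPM, and its log2 fold change of -0.78 ± 0.25 gave an edgeR adjusted p of 0.621. Col9a2 also had ranges apart, at 3.33, 3.71, 0.783 and 2.4 CPM with trauma (-1.87 ± 0.61, adjusted p = 0.625). Col16a1, at 144 to 288 CPM (adjusted p = 0.56), and Col25a1 (-1.05 ± 0.49, adjusted p = 0.721) overlapped with control. Of the 6 genes that rose with the ligature, Col12a1 had 836 ± 169 CPM (SD, n = 4) against 876 ± 157 and Col4a1 60 ± 22.8 against 70.2 ± 14.2. Col18a1 had 30.8 ± 9.46 against 31.4 ± 7.86, and Col4a2 32.6 ± 12.8 against 31.9 ± 10.4. Col15a1, at 11.6 ± 3.38 against 8.29 ± 1.56 CPM (log2 0.48 ± 0.24, edgeR adjusted p = 0.739), had a higher mean with a range that overlapped control. Col5a3 did too, at 14.9 ± 6.66 against 10.9 ± 5.42 CPM (0.46 ± 0.41, adjusted p = 0.818). For Col12a1 the 95% interval of the log2 fold change was -0.59 to 0.46, and for Col4a1 -0.92 to 0.47.

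Adding the ligature to a loaded tooth, ligature plus trauma against trauma, is a comparison on 8 libraries that the comparison of ligature with control did not use. In it 4 collagen genes rose and 4 fell, 10% of the 40 each way, against 2.21% higher and 3.27% lower among all genes. Ranges were apart for 5 higher and 9 lower, against 5.74% and 7.31%. The higher ones were Col4a1, Col4a2, Col18a1 and Col12a1 and the lower ones Col22a1, Col8a2, Col17a1 and Col13a1. All but Col13a1 had also passed between ligature and control in the same direction, which is 7 of these 8 and 7 of those 15. Both comparisons came from 1 fit and share its estimate of the spread. Other ligature calls had overlapping ranges here and did not pass by edgeR. They were Col16a1 (-0.91, adjusted p = 0.102), Col25a1 (-0.87, 0.361), Col15a1 (0.38, 0.423), Col27a1 (-0.29, 0.58) and Col9a2 (-0.40, 0.79). Of these, Col16a1, Col15a1 and Col9a2 had passed under all 25 alternatives between ligature and control. DESeq2 called Col16a1 in this comparison.

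Col12a1 had 592, 896, 874 and 981 CPM with trauma and 2658, 1830, 1911 and 1509 CPM with ligature plus trauma. The ranges were apart (1.24 ± 0.25, edgeR adjusted p = 0.0101). Col4a1 had 55.3, 93.1, 41.4 and 50.2 CPM with trauma and 195, 159, 193 and 328 CPM with both (1.87 ± 0.34, adjusted p = 0.00597), and ligature plus trauma 4 stood above the other 3. Col4a2 changed by 1.49 ± 0.32 (adjusted p = 0.0132) and Col18a1 by 1.79 ± 0.30 (adjusted p = 0.00401), also with ranges apart. Col8a2 had 15.8, 15.4, 14.3 and 15.3 CPM with trauma and 4.86, 4.72, 4.46 and 4.82 CPM with both, with no overlap (-1.69 ± 0.23, adjusted p = 0.00168). These 5 passed under all 25 alternatives.

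Col13a1 had 39.1, 28.5, 20.9 and 36 CPM with trauma and 11.6, 14.3, 12.3 and 11.9 CPM with both, without overlap (-1.31 ± 0.28, edgeR adjusted p = 0.0124, or 0.0523 in the 13 libraries). Col17a1 fell from 54.3, 114, 117 and 63.9 CPM to 36.3, 13.6, 14.4 and 16.6 CPM (-2.11 ± 0.43, adjusted p = 0.0107, or 0.134 in the 13 libraries), again beside the epithelial markers, of which 7 of 8 fell, from a sum of 4026 to 26784 CPM to 687 to 2326 CPM. Col22a1 had 23.8, 10.7, 8.73 and 13.4 CPM with trauma and 2.28, 0.857, 2.82 and 4.19 CPM with both (-2.48 ± 0.57, adjusted p = 0.0196). That call was lost without trauma 1 (0.0587), ligature plus trauma 2 (0.058) or ligature plus trauma 3 (0.0545), and in the 13 libraries (0.164). Endothelial and mural markers rose in 4 of 7, from 211 to 446 CPM to 584 to 783 CPM, and 2 of 7 ligament fibroblast markers fell. The part of these cell types was not tested. Col1a1 (-0.78 ± 0.25, adjusted p = 0.0888), Col1a2 (-0.85 ± 0.25, adjusted p = 0.0587) and Col5a3 (1.24 ± 0.41, adjusted p = 0.0977) had ranges apart but did not pass. So did the cartilage-type chains Col2a1 (-4.88 ± 1.55, edgeR adjusted p = 0.0825), Col11a1 (-0.72 ± 0.30, 0.194) and Col9a3 (-1.58 ± 1.15, 0.189), all lower. Col2a1 was low, at 1.65 to 20.2 CPM with trauma and 0 to 0.856 CPM with both, and Col9a3 was at most 1.9 CPM in any library. With the replicate block, or without ligature plus trauma 1, Col2a1 passed. Col1a1 passed by DESeq2, by limma-voom, with the length trend removed and without ligature 2. Col1a2 passed by DESeq2, by limma-voom, with the stricter filter, in the compared groups only, and without control 1 or ligature 2. Col5a3 passed by DESeq2 and with the length trend removed.

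**Figure D4:**
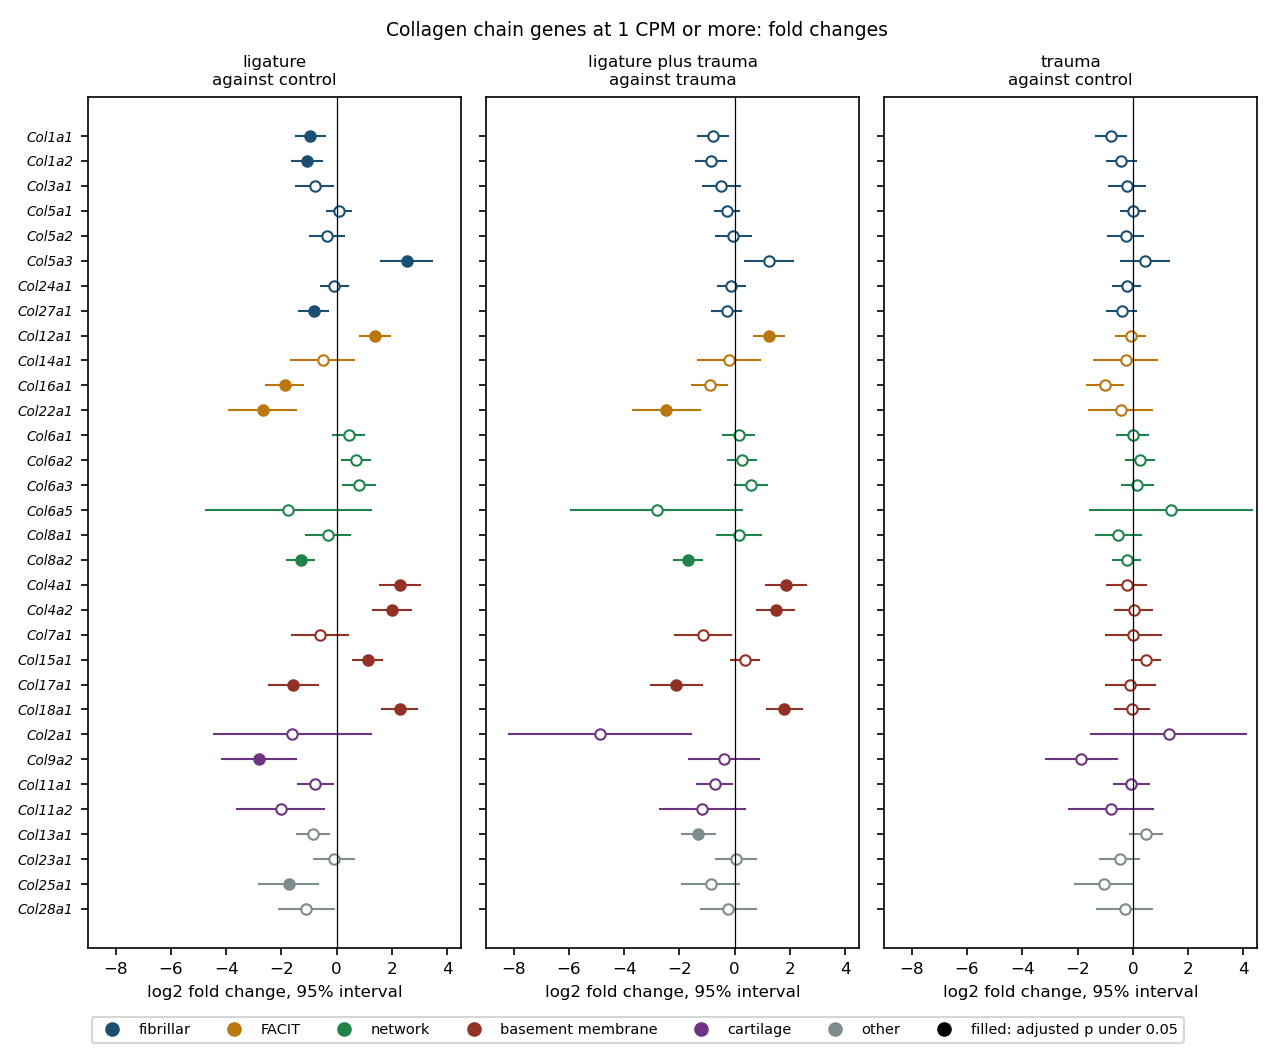
Log2 fold change with 95% interval of the collagen genes with a mean of 1 CPM or more in 3 comparisons, coloured by class and filled where the edgeR adjusted p was under 0.05. Col12a1, Col4a1, Col4a2 and Col18a1 lie to the right in both comparisons that add a ligature, at 1.39, 2.29, 2.00 and 2.28 in the first and 1.24, 1.87, 1.49 and 1.79 in the second, and no point is filled for trauma alone.

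Against the shared control libraries, ligature plus trauma had 6 collagen genes higher and 8 lower, with 6.83% and 5.62% of all genes called. Ranges were apart for 7 higher and 9 lower, against 10.8% and 10.4%. The higher ones were Col4a1 (1.64 ± 0.34), Col4a2 (1.53 ± 0.32), Col18a1 (1.76 ± 0.30), Col5a3 (1.70 ± 0.42), Col12a1 (1.17 ± 0.25) and Col15a1 (0.87 ± 0.24). Col15a1 was called at an edgeR adjusted p of 0.0312 and lost without any 1 of control 1 to 4 (0.0501 to 0.0764) or ligature plus trauma 1 to 3 (0.0701 to 0.0986), and with no filter on low counts (0.0525). Col5a3 was lost without control 4 (0.0527). The lower ones included Col8a2 (-1.91 ± 0.24, adjusted p = 0.000415) and Col1a1, which had 4255, 3617, 3153 and 5068 CPM, all below the control range of 10286 to 13543 (-1.56 ± 0.26, adjusted p = 0.00197). Col1a2, Col16a1, Col22a1, Col17a1, Col9a2 and Col25a1 also fell, with log2 fold changes from -1.27 ± 0.25 (Col1a2) to -2.91 ± 0.58 (Col22a1). Col9a2 was lost without control 3 (0.0514), control 4 (0.0822) or ligature plus trauma 1 (0.0527) or 3 (0.0903), and Col25a1 without control 1 (0.0519), control 4 (0.0589) or ligature plus trauma 2 (0.0763) or 3 (0.0798). In the 13 libraries, which leave 2 of ligature plus trauma, 5 were higher and 3 lower. Lost there were Col15a1 (adjusted p = 0.213), Col25a1 (0.165), Col17a1 (0.0865), Col9a2 (0.0859), Col22a1 (0.0738) and Col1a2 (0.0532). Markers moved in this comparison too. All 8 oral epithelium markers fell, from a sum of 1232 to 10772 CPM to 687 to 2326 CPM, and 4 of 7 endothelial and mural markers rose, from 240 to 473 CPM to 584 to 783 CPM. Of the ligament fibroblast markers 2 of 7 fell, of the osteoblast markers 2 of 8 fell, and of the leukocyte markers 2 of 5 rose, and the part of these cell types was not tested.

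Trauma on top of a ligature gave no collagen call against ligature alone, with 0% of all genes called by edgeR in either direction. Ranges were apart for 0 collagen genes, against 0.663% of all genes higher and 0.778% lower. At an unadjusted p under 0.05 there were 2 of 40, 5%, against 3.5% of all genes. They were Col1a1 and Col8a2, each at -0.61. DESeq2 and limma-voom also called 0 collagen genes. The interaction of ligature and trauma, that is, trauma's effect under a ligature less its effect alone, was called for 0 collagen genes by edgeR, DESeq2 and limma-voom, against an edgeR background of 0%. It was under an unadjusted p of 0.05 for 4 of 40, 10%, against 4.93% of all genes. They were Col9a2 (2.40), Col5a3 (-1.29), Col16a1 (0.97) and Col15a1 (-0.74) on the log2 scale.

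Ratios between chains of 1 library do not depend on scaling between libraries. Col12a1 against Col1a1 counts was 0.0555 to 0.0900 in control, 0.318 to 0.490 with the ligature, 0.0708 to 0.147 with trauma and 0.298 to 0.625 with both. The groups with a ligature lay apart from those without, by 2.38 on the log2 scale against control and 2.03 between the trauma groups. Both had an exact two-sided permutation p of 0.0286, the smallest that 4 against 4 allows, and an adjusted p of 0.143 over the 40 tests of 10 ratios, so neither passed. Of the 40, 8 reached that smallest p and 0 passed. An adjusted p under 0.05 would need most of the 40 tests at that smallest p, so not passing says little about a single ratio. Col5a1 against Col1a1 was also apart, at most 0.0770 in control and 0.107 to 0.229 with the ligature (difference 1.09, exact p = 0.0286, adjusted p = 0.143). The 0.229 was ligature 2, 1 of the 3 libraries shifted to short transcripts, and the next highest was 0.114 in ligature 3. The size of this difference therefore rests in part on ligature 2, and ratios in the 13 libraries are not given. With trauma Col5a1 against Col1a1 was 0.0809 to 0.152, again above every control library (difference 0.77, the same exact p and adjusted p). The others at the smallest p were Col14a1 against Col12a1 between ligature and control (-2.28), Col6a2 against Col6a1 between trauma and control (0.23), and Col3a1 against Col1a1 (0.73) and Col5a2 against Col5a1 (0.42) between ligature plus trauma and ligature. Col5a2 against Col5a1 was 1.03 in ligature 2 and 1.65 to 1.74 in the other ligature libraries, so its 0.42 also rests in part on ligature 2. Col4a2 against Col4a1 overlapped between control and ligature, at 0.366 to 0.503 and 0.291 to 0.517 (difference -0.20, exact permutation p = 0.4).

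**Figure D5:**
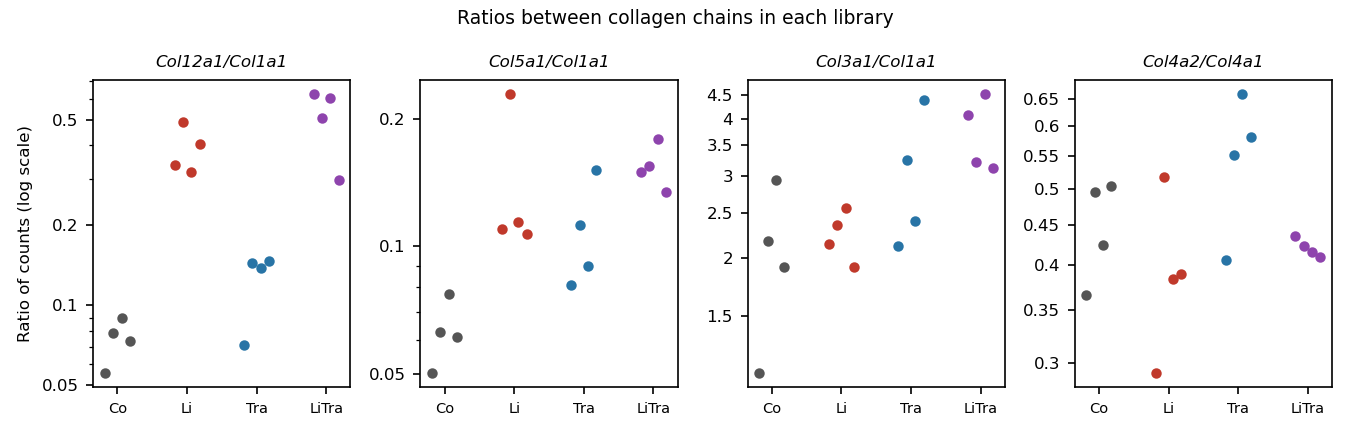
Ratio of the counts of 2 collagen chains in each library (log axis), with Co for control, Li for ligature, Tra for trauma and LiTra for both, 4 libraries each. Col12a1 against Col1a1 lies at 0.298 to 0.625 in the 8 libraries with a ligature and at 0.0555 to 0.147 in the 8 without, while Col4a2 against Col4a1 overlaps between control and ligature.

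The genes that make, cut and bind collagen were read from 3 lists. Of 30 genes of collagen synthesis, folding and cross-linking, 2 rose and 0 fell between ligature and control. Among all genes tested 5.88% were higher and 4.78% lower, the shares to set beside each list's counts in this comparison. Plod3, a lysyl hydroxylase and glycosyltransferase, rose from 44.8 ± 5.53 to 85.9 ± 13 CPM (SD, n = 4; log2 0.94 ± 0.22, edgeR adjusted p = 0.0122). Loxl3, a cross-linking oxidase, rose from 41.6 ± 10.1 to 75.9 ± 9.7 CPM (0.87 ± 0.23, adjusted p = 0.0257), a call lost without control 1 (0.0515), control 2 (0.0657), control 3 (0.0746) or ligature 3 (0.0605), when only the 2 groups were fitted (0.0518) and in the 13 libraries (0.0514). The list's median log2 fold change was -0.02, beside -0.05 over all genes.

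Of 10 genes of collagen breakdown, 4 rose and 1 fell, with a median of 0.73. Ctsk, the collagen-cutting cathepsin of osteoclasts, had 572, 1712, 2794 and 2342 CPM in control and 9370, 8809, 6788 and 6983 CPM with the ligature, with no overlap (2.11 ± 0.40, edgeR adjusted p = 0.00372). Mmp9, a gelatinase, was at 308 to 372 and 773 to 1818 CPM (2.04 ± 0.33, adjusted p = 0.00145). The collagenase Mmp13 was at 772 to 3735 and 3973 to 17587 CPM (2.23 ± 0.56, adjusted p = 0.0194, or 0.0502 without ligature 1). Of the inhibitors, Timp1 rose (3.71 ± 0.59, adjusted p = 0.00129) and Timp3 fell, from 2623 ± 361 to 970.0 ± 334 CPM (-1.44 ± 0.33, adjusted p = 0.0115). Among 10 receptors, the integrin chain Itga10 fell (-1.53 ± 0.40, adjusted p = 0.0238) and none rose. Itga10 was lost without control 3 (0.0705) or control 4 (0.0695), with the length trend removed (0.0996) and when only the 2 groups were fitted (0.0909).

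None of these 50 genes passed between trauma and control, where 0.00477% of all genes were higher and 0% lower. Between ligature plus trauma and trauma, 2.21% of all genes were higher and 3.27% lower. In that comparison 4 of the 10 breakdown genes rose: Ctsk (2.23 ± 0.40), Mmp9 (1.74 ± 0.33), Timp1 (2.85 ± 0.57) and Mmp13 (2.32 ± 0.56, edgeR adjusted p = 0.0247). The cross-linking enzyme Lox also rose, from 99.2, 157, 77.2 and 91.3 CPM to 285, 200.1, 260.2 and 436 CPM (1.48 ± 0.37, adjusted p = 0.0299). The Mmp13 call was lost without trauma 1 (0.0745), trauma 3 (0.0744) or ligature plus trauma 4 (0.063), and the Lox call without trauma 1 (0.0776), 3 (0.0968) or 4 (0.0744) or ligature plus trauma 3 (0.0571) or 4 (0.0907).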

How the data were processed

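The deposited table holds the authors' raw counts for 55359 genes in 16 libraries. The build GRCm39 and HISAT2 2.2.1, StringTie 2.1.7, Trimmomatic 0.39, DESeq2 1.32.0 and FastQC 0.11.9 appear in the submitters' processing notes, with no roles or order. Counter, annotation release and strand are not given in these sources, so reads of overlapping or antisense genes cannot be told apart. Per the labels' protocols, poly(A) RNA was sequenced after TRIzol extraction. Symbols (52083 identifiers) and transcript lengths (all 44 collagen genes, longest protein-coding transcript) came from GENCODE M21 on GRCm38. Genes without a symbol held 0.205% of counts.

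Genes were tested with the quasi-likelihood test of edgeR 4.0.16 in R 4.3.3, with trimmed-mean scaling, edgeR's filter (minimum count 10), all 16 libraries in 1 fit with 12 residual degrees of freedom, and Benjamini-Hochberg adjustment over 20953 genes. Ratios of counts were tested by exact permutation. Values per library are given for collagen genes called at a mean of 5 CPM or more and a panel of 16, and for a few further genes chosen after their values were seen, as Col9a2. Of the other lists, up to 5 genes with the lowest p are named. Alternatives were DESeq2 1.42.0, its size factors, no filter, a stricter filter (50 counts in 4 libraries), limma-voom (limma 3.58.1) with sample weights, removal of each library's trend with length (spline, 5 degrees of freedom), compared groups only, 13 libraries, the replicate number as a block, and each library left out. The collagen genes, gene lists and tests were chosen with earlier results of these data known. The edgeR script was tested on simulated counts for ligature against control over 20953 genes: of 50 genes lowered and 50 raised 2-fold, 36 and 38 were called, and of those changed 4-fold 50 and 50. Every simulated gene had the same spread between libraries (dispersion 0.05), and the changed genes were drawn from well-counted ones. Recovery may therefore be lower for collagen genes that vary more or have few counts. The highest correlation of log2 CPM between libraries was 0.948, so none was a copy of another. For abundant genes, precision at this depth depends on how libraries vary rather than on counting.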

Additional observations from a re-analysis of the deposited data

Results flagged for a closer look

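Of 168 sets of 4 libraries (a collagen gene in a group), 12 held a library whose gap to the next exceeded Dixon's critical value. Chance flags about 1 in 20 sets. In control 1, Col22a1 was low at 8.57 CPM, while Col23a1 (21 CPM) and Col4a6 (1.59 CPM) were high. Control 1 also had the lowest ligament marker sum of its group. In trauma 1, Col2a1 (20.2 CPM) and Col11a2 (84 CPM), both cartilage-type chains, were high. Ligature plus trauma 1 was high for Col17a1 (36.3 CPM) and Col2a1 (0.856 CPM), the latter listed at 0 in the other 3. Ligature plus trauma 4 was high for Col8a1 (36.1 CPM). The other high values were of genes at or near 0: Col20a1 in ligature 2 (0.332 CPM), Col4a5 in ligature 1 (1.51 CPM), Col19a1 in ligature plus trauma 2 (0.0559 CPM) and Col26a1 in trauma 4 (0.217 CPM).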

How the results depend on the processing

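Counts of collagen genes kept within 1.5 times under most alternatives. The lower count between ligature and control was 9, or 5 to 9 with 1 library left out (5 without ligature 1). Between ligature plus trauma and control, 8 lower became 3 in the 13 libraries, and 6 to 9 with 1 library left out. Between ligature plus trauma and trauma, 4 lower became 7 by DESeq2 and 1 in the 13 libraries, where ligature plus trauma keeps 2 libraries. Called under all 25 alternatives were 10 of 15 genes between ligature and control, 7 of 14 between ligature plus trauma and control, and 5 of 8 against trauma.

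With the length trend removed, 9 collagen genes changed sign between trauma and control, among them Col3a1 (0.067), Col12a1 (0.289) and Col4a1 (0.077), and the median moved from -0.215 to 0.073. Between ligature plus trauma and control it moved from -0.603 to -0.239. Col12a1 also changed sign without trauma 1 (-0.190 to 0.066 over the libraries left out); none was called, and the cause was not tested. Log2 ratios that changed sign with 1 library left out ranged from -0.163 to 0.196 (Col11a1/Col5a1, trauma against control), -0.247 to 0.123 (Col1a2/Col1a1) and -0.048 to 0.415 (Col3a1/Col1a1) between ligature and control, -0.172 to 0.038 (Col1a2/Col1a1, ligature plus trauma against trauma), and -0.019 to 0.258 (Col4a2/Col4a1) and -0.010 to 0.245 (Col6a2/Col6a1) between ligature plus trauma and ligature.

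Over all genes, 1233 higher and 1001 lower between ligature and control became 1934 and 1742 by DESeq2, and 744 and 625 in the compared groups only. For ligature plus trauma, 1431 and 1178 against control became 486 and 257, and 464 and 685 against trauma became 246 and 157, in the 13 libraries. DESeq2 gave 81 higher and 33 lower between trauma and control, 22 and 9 between ligature plus trauma and ligature, and 32 and 19 in the interaction.

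Replicate numbers were not treated as pairs in the main fit. Of 24 same-number pairs 5 had a correlation of deviations over 0.1 (median 0.0207), against 8 of 72 other-number pairs (median -0.00481). The replicate block left 6 higher and 9 lower between ligature and control, 6 and 8 between ligature plus trauma and control (Col9a2 lost at adjusted p = 0.0523, Col2a1 gained), and 4 and 5 against trauma.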
